A study of Homo sapiens with 6 samples.

Results

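The genes described here encode secreted factors that tell blood and lymph vessels to grow, together with the 2 neuropilins that serve as their coreceptors. The 10 genes were chosen by name and not by a threshold on their values: the vascular endothelial growth factors VEGFA, VEGFB, VEGFC and PGF, the peptide hormone precursors ADM and EDN1, the angiopoietins ANGPT1 and ANGPT2, and the coreceptors NRP1 and NRP2. They are 10 of the 26425 genes with a value in the table, and 79 of their transcripts are in it. Of the 10, 6 were expressed highly enough to be among the 11889 genes tested.

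RNA was sequenced from SUM1315, an established human breast cancer line whose genotype is labelled wild type. The line is also labelled triple negative, that is, without the hormone receptors and HER2 amplification that guide treatment. All cells were grown in medium with serum, insulin and EGF. The normoxia group (3 libraries) was kept in air with 21% O2, and the hypoxia group (3 libraries) spent 24 h in a sealed chamber with 1% O2. The labels do not say whether the 3 libraries of a group came from separate cultures, so p-values reflect only how far these libraries differ among themselves, which could be technical. The series holds a single cell line and a single time of exposure, and the culture holds no vessel wall on which the factors could act.

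Cells short of oxygen stabilise the HIF transcription factors, and VEGFA and ADM are among the best known genes that HIF switches on. VEGFA acts on endothelial cells through the receptors FLT1 and KDR, VEGFB and PGF bind FLT1, and VEGFC acts mainly through FLT4 on lymphatic vessels. Neuropilins have no kinase of their own: they hold VEGF proteins, or the semaphorins of axon guidance, and present them to signalling receptors. VEGFA is made in several lengths by splicing, and the stretch encoded by exons 6 and 7 binds heparin and neuropilins and decides how far the protein diffuses from the cell.

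The places where the VEGFA messages part are shown here because the results on isoforms turn on them. Each line gives 30 bases of spliced sequence across a junction, read from the GRCh38 genome with the GENCODE 29 exons, with the upstream exon in lower case and the downstream exon in capitals. VEGFA-206 skips both exon 6 and exon 7, VEGFA-205 skips exon 6, VEGFA-209 holds both, and VEGFA-213 ends in an alternative exon 8.
VEGFA-206, exon 5 to exon 8: agacaagaaaaATGTGACAAGCCGAGGCGG
VEGFA-205, exon 5 to exon 7: agacaagaaaaTCCCTGTGGGCCTTGCTCA
VEGFA-209, exon 5 to exon 6: agacaagaaaaAAAATCAGTTCGAGGAAAG
VEGFA-205, exon 7 to exon 8: cgtacttgcagATGTGACAAGCCGAGGCGG
VEGFA-213, exon 7 to the alternative exon 8: cgtacttgcagATCTCTCACCAGGAAAGAC

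Exon 6 (chr6:43780732-43780803, forward strand) is 72 bases long and exon 7 (chr6:43781956-43782087) is 132 bases long. Both are coding, and their letters follow, since they are the sequence by which the VEGFA classes below differ.
exon 6: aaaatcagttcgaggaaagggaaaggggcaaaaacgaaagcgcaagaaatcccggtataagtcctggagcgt
exon 7: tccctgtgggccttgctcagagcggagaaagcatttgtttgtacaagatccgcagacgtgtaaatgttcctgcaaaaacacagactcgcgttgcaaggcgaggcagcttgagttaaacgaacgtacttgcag

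Values are RPKM, reads divided by the length of the message and the depth of the library, which the authors deposited per transcript and which were summed here per gene. Because RPKM is scaled to length, levels can be compared between genes. The smallest steps of the values gave a depth of 43.9 M reads in hypoxic library 3 and of 49.4 to 50.7 M in the 5 others. The labelled cell type was checked on its markers: the mesenchymal marker VIM was at 4840 ± 86.5 RPKM in normoxia and 6742 ± 610 in hypoxia (SD, n = 3). The oestrogen receptor ESR1 stayed below 0.21 RPKM in every library, PGR was not analysed here, GATA3, on the same luminal list, was expressed and fell from 4.93 ± 0.219 to 3.77 ± 0.826 RPKM (adjusted p 0.0436 by limma), and ERBB2, which encodes HER2, was at 20.2 to 23.7 RPKM. KRT5, KRT14 and KRT17, keratins of basal breast cells, were below 0.12 RPKM. The highest values of KRT8, KRT18 and EPCAM, also on the luminal list, were 0.0472, 0.0260 and 0.0785 RPKM. The 5 endothelial markers with values (PECAM1, VWF, CLDN5, TIE1 and TEK) summed to between 0.0307 and 0.115 RPKM in normoxia and between 0.139 and 0.397 in hypoxia, and PECAM1 was listed at 0 in all normoxic libraries. The leukocyte marker PTPRC was listed at 0 in all hypoxic libraries, while CD68, which is on the same list, rose from 46.7 ± 1.39 to 77.2 ± 3.60 RPKM. On the fibroblast list COL1A1 rose from 257 ± 21.2 to 390 ± 26.9 RPKM and PDGFRA fell from 3.75 ± 0.396 to 2.20 ± 0.324. PDGFRB and LUM, on the same list, had highest values of 0.152 and 0.00735 RPKM, and DCN was not analysed here. The part of these marker changes in the results below was not tested.

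In hypoxia ADM and VEGFA rose, NRP1 fell, and VEGFB, VEGFC and NRP2 did not pass the test. PGF, EDN1, ANGPT1 and ANGPT2 were at or near the limit of detection in both groups. So 2 of the 6 tested genes were raised and 1 was lowered at an adjusted p under 0.05 (limma with Benjamini-Hochberg adjustment over all 11889 genes). Over all tested genes 12.4% were raised and 24.4% were lowered, so the counts for so few genes say little, and the sizes carry more. ADM ranked 68 and VEGFA 96 among the 11889 genes by log2 fold change. Only 0.908% of all genes were called and rose at least 2-fold, and both ADM and VEGFA were among them. The median log2 fold change was 0.10 over the 6 genes and -0.08 over all genes. Log2 fold changes give hypoxia minus normoxia of log2(RPKM + 1), and the added 1 shrinks the change of genes with low levels. In these bulk samples a change in the share of cells that make a message and a change in its amount per cell cannot be told apart.

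**Figure D1:**
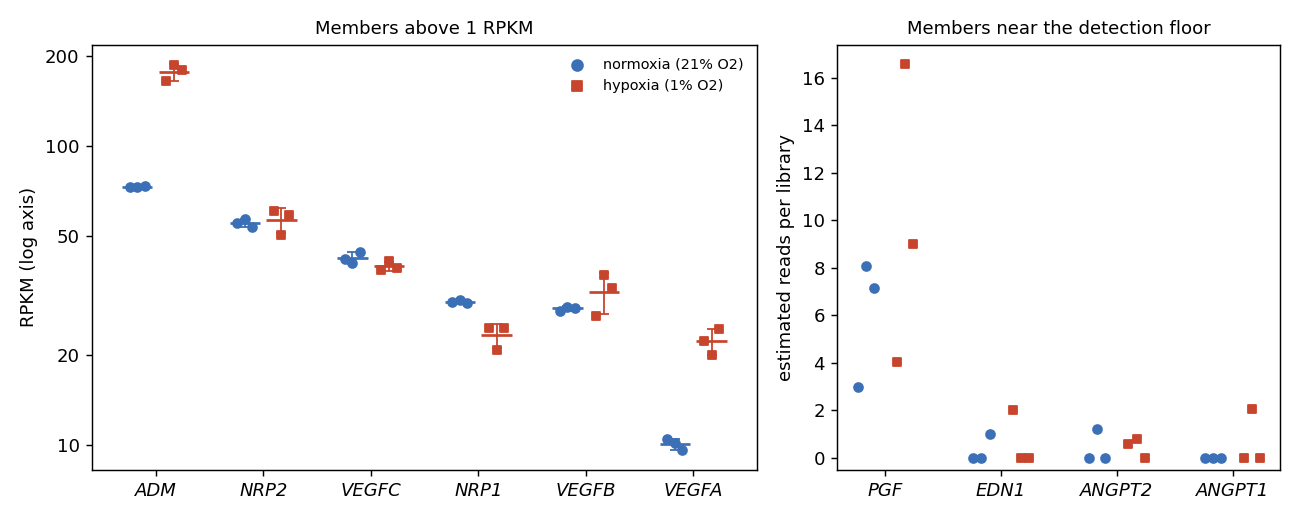
Levels of the 10 genes in each of the 6 libraries, with normoxia as blue circles and hypoxia as red squares. The left panel gives RPKM on a log axis for the 6 tested genes with the mean and SD (n = 3), and the right panel gives estimated reads per library on a linear axis for the 4 others. ADM and VEGFA are higher in every hypoxic library, NRP1 is lower in every one, and no library holds more than 16.6 reads of PGF.

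ADM (ENSG00000148926, chr11:10304680-10307397, forward strand) encodes adrenomedullin, a secreted peptide that widens vessels and helps them form. It was the most abundant of the 10 genes in both groups. Its level was 72.8, 73.0 and 73.4 RPKM in normoxic libraries 1, 2 and 3 and 165, 187 and 180 RPKM in hypoxic libraries 1, 2 and 3. The normoxic libraries were nearly alike and the groups were far apart. The mean rose 2.43-fold, from 73.1 ± 0.294 to 177 ± 11.4 RPKM (SD, n = 3). The log2 fold change was 1.26 with an SE of 0.06 (adjusted p 9.43e-08 by limma). Between 6562 and 16667 estimated reads per library stand behind these values.

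Of the 6 ADM messages tested, ADM-201, ADM-203 and ADM-206 rose and ADM-202, ADM-207 and ADM-208 did not pass the test. Among all transcripts tested 2.35% were raised. ADM-201, which encodes the precursor of 185 codons, held 84.7% of ADM RPKM in normoxia and 81.8% in hypoxia. It rose from 61.9 ± 1.45 to 145 ± 16.8 RPKM (log2 fold change 1.21, adjusted p 4.23e-04 by limma over 36442 transcripts). The shorter ADM-203, which encodes the same precursor, was the least steady: its share was 11.8%, 7.08% and 18.2% in the 3 hypoxic libraries against 8.74% to 9.14% in normoxia. All transcripts that encode 185 codons together held 95.2 ± 1.45% in normoxia and 95.7 ± 0.685% in hypoxia, 0.498 percentage points apart (exact permutation test, two-sided, p = 0.7, where the smallest p that 3 against 3 libraries allow is 0.1).

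VEGFA (ENSG00000112715, chr6:43770184-43786487, forward strand) encodes the principal growth factor of blood vessels. In normoxia it had the lowest level of the 6 tested genes, at 10.4, 10.1 and 9.59 RPKM in libraries 1, 2 and 3. In hypoxia it was at 22.3, 19.9 and 24.5 RPKM. All hypoxic libraries lay above all normoxic ones, as they did for 16.4% of tested genes. The mean rose 2.21-fold, from 10.1 ± 0.428 to 22.2 ± 2.26 RPKM (SD, n = 3), which is 1.07 on the log2 scale (SE 0.08, adjusted p 5.56e-06 by limma). With protein-coding transcripts alone the log2 fold change was 0.86, and with estimated reads in place of RPKM it was 1.20.

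VEGFB (ENSG00000173511, chr11:64234538-64238793, forward strand) encodes a relative of VEGFA that is known more for effects on fat uptake and cell survival than for vessel growth. It was at 28.1, 29.1 and 28.7 RPKM in normoxia and at 27.0, 37.0 and 33.5 RPKM in hypoxia. Hypoxic library 1 lay below all normoxic libraries and the other two above them, so the groups overlapped. The log2 fold change was 0.16 (SE 0.10, adjusted p 0.194 by limma). Without hypoxic library 1 it was 0.29 with an adjusted p of 0.0101, and without hypoxic library 2 it was 0.07 with an adjusted p of 0.559, so single libraries decide both the size and the call. The transcript with 207 codons, VEGFB-201, held 85.4 ± 1.35% of VEGFB RPKM in normoxia and 88.6 ± 2.64% in hypoxia (exact permutation p = 0.2). VEGFB-202, with 188 codons, held 8.42 ± 0.849% and 8.56 ± 0.964% (exact permutation p = 0.9).

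VEGFC (ENSG00000150630, chr4:176683538-176792727, reverse strand) encodes the main growth factor of lymphatic vessels, made as a precursor that must be cut to become fully active. It was at 42.0, 40.5 and 44.4 RPKM in normoxia and at 38.7, 41.3 and 39.3 RPKM in hypoxia. The groups overlapped through hypoxic library 2 and normoxic library 2. The log2 fold change was -0.09 (SE 0.06, adjusted p 0.272 by limma), close to the median of all genes. When libraries were rescaled to equal RPKM sums it was -0.15 with an adjusted p of 0.0443. VEGFC-202, with 419 codons, held 99.1% of VEGFC RPKM in normoxia and 99.5% in hypoxia.

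The other growth factor of the family, PGF (ENSG00000119630, chr14:74941834-74955784, reverse strand), encodes placental growth factor, a ligand of FLT1. It was at 0.0347, 0.0925 and 0.0812 RPKM in normoxia and at 0.0464, 0.189 and 0.0925 RPKM in hypoxia. These values stand for 2.99 to 16.6 estimated reads per library, and the groups overlapped. A count of 0 would allow 0.0192 RPKM at the lowest depth, taking 3 reads as the limit and the longest PGF transcript. Shorter transcripts would allow more, and this covers counting error only. PGF was not tested.

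EDN1 (ENSG00000078401, chr6:12290363-12297194, forward strand) encodes endothelin-1, a peptide that narrows vessels and is made mainly by endothelial cells. It had 0.994 estimated reads in normoxic library 3, 1.99 in hypoxic library 1 and none in the other 4. ANGPT1 (ENSG00000154188, chr8:107249482-107498055, reverse strand) encodes the angiopoietin that activates the receptor TEK and steadies vessels. It had 2.03 estimated reads in hypoxic library 2 and none elsewhere. ANGPT2 (ENSG00000091879, chr8:6499651-6563409, reverse strand) encodes the angiopoietin that opposes ANGPT1 in many settings, and its gene lies within MCPH1. It had 1.19 estimated reads in normoxic library 2, 0.595 in hypoxic library 1, 0.782 in hypoxic library 2 and none elsewhere. Only 2 of the 8 annotated ANGPT1 transcripts and 2 of the 4 of ANGPT2 have values here. At the lowest depth a count of 0 allows 0.0336 RPKM of EDN1, 0.0157 of ANGPT1 and 0.0126 of ANGPT2. These limits take the longest transcript of each gene, and shorter transcripts would allow more. So neither expression nor a difference was detectable for these 3 genes at this depth.

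The coreceptor NRP1 (ENSG00000099250, chr10:33177492-33336262, reverse strand) binds VEGFA forms that hold exon 7 and hands them to KDR. Its messenger was at 30.0, 30.6 and 29.9 RPKM in normoxia and at 24.6, 20.9 and 24.6 RPKM in hypoxia. All hypoxic libraries lay below all normoxic ones, as they did for 35.5% of tested genes. The mean fell from 30.2 ± 0.365 to 23.3 ± 2.14 RPKM (SD, n = 3), a ratio of 0.772, which is -0.36 on the log2 scale (SE 0.07, adjusted p 0.00377 by limma). The decrease is 0.28 further down than the median gene on the log2 scale. With median-of-ratios scaling, which moves the median of all genes to -0.01, the log2 fold change of NRP1 was -0.28 (adjusted p 0.0145).

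NRP1 is also made in short forms that end before the membrane span and are secreted. Transcripts whose coding sequence ends at the stop of NRP1-204, which has 644 codons, held 27.3%, 27.7% and 26.8% of NRP1 RPKM in normoxia and 29.9%, 21.3% and 30.8% in hypoxia. The means were 27.3 ± 0.471% and 27.3 ± 5.27% (exact permutation p = 1). The full-length stop held 70.4 ± 0.713% and 70.5 ± 4.42% (exact permutation p = 1). Hypoxic library 2 was low in the short form and high in the long form. The full-length transcript NRP1-206, with 923 codons, fell from 13.9 ± 0.321 to 9.95 ± 0.858 RPKM (log2 fold change -0.45, adjusted p 0.0335 by limma over transcripts, of which 1.67% were lowered).

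NRP2 (ENSG00000118257, chr2:205681990-205798133, forward strand) encodes the neuropilin that pairs with FLT4 and binds VEGFC. It was at 55.5, 57.0 and 53.5 RPKM in normoxia and at 60.8, 50.3 and 58.9 RPKM in hypoxia. Hypoxic library 2 lay below every normoxic library and the other two above, so the groups overlapped. The log2 fold change was 0.03 (SE 0.07, adjusted p 0.774 by limma), and its sign turned when libraries were rescaled to equal RPKM sums (-0.04) and when hypoxic library 1 was left out (-0.02).

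The NRP2 messages kept close shares. The short form ending at the stop of NRP2-206, with 555 codons, held 17.7 ± 2.89% in normoxia and 15.8 ± 2.66% in hypoxia (exact permutation p = 0.5). The 2 long forms differ in the end of the protein inside the cell. The one with the stop of NRP2-203 held 44.0 ± 1.89% and 45.3 ± 2.94% (exact permutation p = 0.7). The one with the stop of NRP2-202 held 30.7%, 30.6% and 32.4% in normoxia and 33.7%, 33.8% and 33.4% in hypoxia, with no overlap and a difference of 2.41 percentage points (exact permutation p = 0.1, the smallest possible). Over the 17 transcript shares compared by RPKM here and below, no p adjusted by Benjamini-Hochberg was under 0.425.

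The order of the 10 genes by level in normoxia was ADM, NRP2, VEGFC, NRP1, VEGFB, VEGFA, PGF, EDN1, ANGPT2 and ANGPT1. From ADM to PGF every neighbour was separate from the next, in that their ranges over 3 libraries did not overlap, while EDN1 and the angiopoietins overlapped one another. In hypoxia VEGFB passed NRP1, and NRP1 and VEGFA overlapped, at 20.9 to 24.6 and 19.9 to 24.5 RPKM. ADM, NRP2, VEGFC and VEGFB stayed separate from the next gene in the order.

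Ratios of RPKM within a library do not depend on the scaling between libraries. The ratios below were chosen after the values were seen. VEGFA stood to NRP1 as 0.348, 0.331 and 0.320 in normoxia and as 0.910, 0.956 and 0.996 in hypoxia. Their summed RPKM in hypoxia thus came close to equal. The VEGFA sum includes transcripts annotated as retaining an intron, with no coding sequence assigned. These were at 2.09 ± 0.121 RPKM in normoxia and 6.86 ± 0.768 in hypoxia, of 10.1 and 22.2 in all. NRP1 transcripts with values are all annotated as coding, and the ratio for coding messages alone was not tested. The ratio of NRP1 to NRP2 was 0.541, 0.537 and 0.560 in normoxia and 0.404, 0.415 and 0.417 in hypoxia. Its means were 0.546 ± 0.0121 and 0.412 ± 0.00671 (SD, n = 3). VEGFA stood to VEGFC as 0.238 ± 0.0191 in normoxia and 0.561 ± 0.0716 in hypoxia, and to VEGFB as 0.351 ± 0.0187 and 0.699 ± 0.147. Each of these 4 ratios did not overlap between groups (exact permutation p = 0.1 for each, 0.12 after Benjamini-Hochberg adjustment over the 6 ratios and shares compared here). Of the summed RPKM of VEGFA, VEGFB, VEGFC and PGF, VEGFA held 12.4 ± 0.724% in normoxia and 23.6 ± 2.89% in hypoxia (exact permutation p = 0.1). The ratio of VEGFA to ADM, 0.138 ± 0.0064 and 0.126 ± 0.0169, overlapped between groups (exact permutation p = 0.4).

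**Figure D2:**
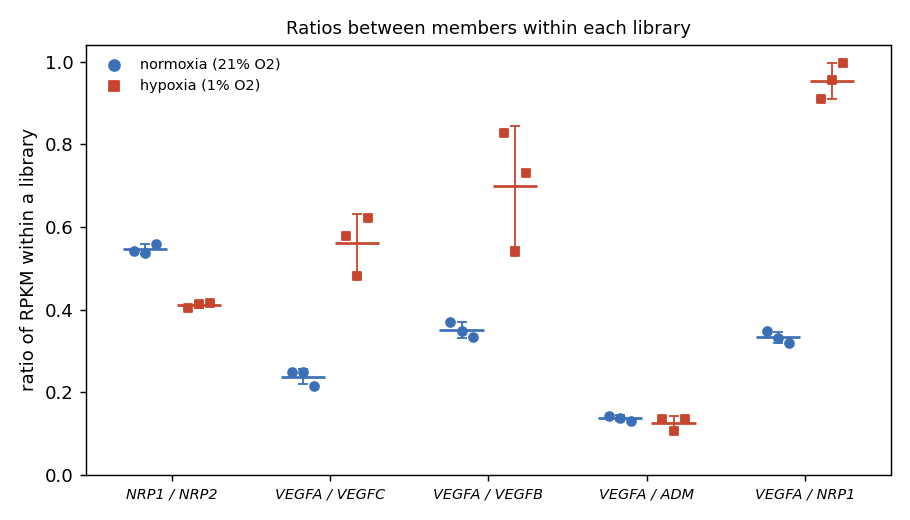
Ratios of RPKM between pairs of genes within each library, on a linear axis from 0, with normoxia as blue circles, hypoxia as red squares, and the mean and SD of 3 libraries as bars. The VEGFA to NRP1 ratio lies between 0.320 and 0.348 in normoxia and between 0.910 and 0.996 in hypoxia, the NRP1 to NRP2 ratio is lower in every hypoxic library, and the VEGFA to ADM ratios overlap.

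VEGFA isoforms were then compared by class. Its 24 transcripts with values were sorted by the coding exons that the annotation gives them: 5 lack exon 7, 7 hold exon 7 without exon 6, 6 hold both, and 6 are annotated as retaining an intron and have no coding sequence assigned. All 4 classes were higher in every hypoxic library than in any normoxic one (exact permutation p = 0.1 for each). They are parts of one gene whose sum rose, so these are not 4 separate results. Such separation held for 16.4% of tested genes, and its share among transcript classes was not counted. The class without exon 7 was not sorted by exon 6. Its messages were at 4.03, 3.50 and 3.41 RPKM in normoxia and 5.31, 5.28 and 8.64 in hypoxia. Messages with exon 7 alone were at 3.45, 3.41 and 3.37 RPKM in normoxia and 5.80, 4.52 and 5.74 in hypoxia. Messages with both exons, which encode forms held most tightly at the cell surface and matrix, were at 0.839, 1.03 and 0.869 RPKM in normoxia and 3.61, 4.05 and 3.20 in hypoxia. The fold of the means was 1.76, 1.57 and 3.96 in that order. Retained-intron messages were at 2.12, 2.18 and 1.95 RPKM in normoxia and 7.62, 6.09 and 6.88 in hypoxia, 3.29 times as high on average.

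The share of VEGFA RPKM without exon 7 was the comparison set for splicing. It was 38.6%, 34.6% and 35.5% in normoxia and 23.8%, 26.5% and 35.3% in hypoxia. Hypoxic library 3 lay among the normoxic libraries, and hypoxic libraries 1 and 2 lay below them. VEGFA-220, a transcript of this class, was unsteady. It held 1.75%, 1.20% and 4.14% of VEGFA RPKM in normoxia and 0.592%, 0.929% and 9.85% in hypoxia. The share without VEGFA-220 was not tested. The means were 36.2 ± 2.12% and 28.5 ± 6.04%, a difference of -7.70 percentage points (exact permutation p = 0.2). With RPKM multiplied by transcript length the difference was -10.8 points with no overlap (exact permutation p = 0.1). Among coding transcripts alone it was -4.59 points (exact permutation p = 0.4). Transcripts with exon 7, whether or not they hold exon 6, had 43.0 ± 1.72% in normoxia and 40.5 ± 3.50% in hypoxia (exact permutation p = 0.4).

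The split by exon 6 is not resolved by these values. VEGFA-205, which is 3535 bases long and lacks exon 6, and VEGFA-209, which is 1575 bases long and holds it, have identical deposited values in all 6 libraries: 0.836, 1.02 and 0.866 RPKM in normoxia and 3.61, 4.05 and 3.19 in hypoxia. Such equality was rare: of 27649 transcripts above 0.5 RPKM in all libraries, 14 shared their values with another transcript of their gene. Nearly all of the class with both exons is VEGFA-209. Its share, 9.10 ± 1.08% in normoxia and 16.5 ± 3.63% in hypoxia, therefore rests on how reads were divided between these 2 messages. The same holds for the share with exon 7 alone, which was 33.9 ± 1.06% and 24.0 ± 1.71% by RPKM but 25.8 ± 1.83% and 27.6 ± 2.07% by RPKM times length.

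The share of retained-intron transcripts was described after the values were seen. It was 20.3%, 21.6% and 20.3% in normoxia and 34.1%, 30.5% and 28.1% in hypoxia, higher in all 3 hypoxic libraries. Of the 6457 genes with such a transcript, 5.48% had a share that was higher in all hypoxic libraries. The VEGFA difference, 10.2 percentage points (exact permutation p = 0.1), was larger than in 99.0% of them, and their median difference was 0.00605 points. By RPKM times length the difference was 4.57 points, also with no overlap. Of the other tested genes of the group that have such transcripts, VEGFB had 6.18 ± 1.62% in normoxia and 2.81 ± 3.05% in hypoxia (exact permutation p = 0.2), and NRP2 had 3.93%, 3.56% and 4.48% against 2.82%, 2.62% and 2.31%, a share lower in every hypoxic library, as for 4.54% of the 6457 genes.

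**Figure D3:**
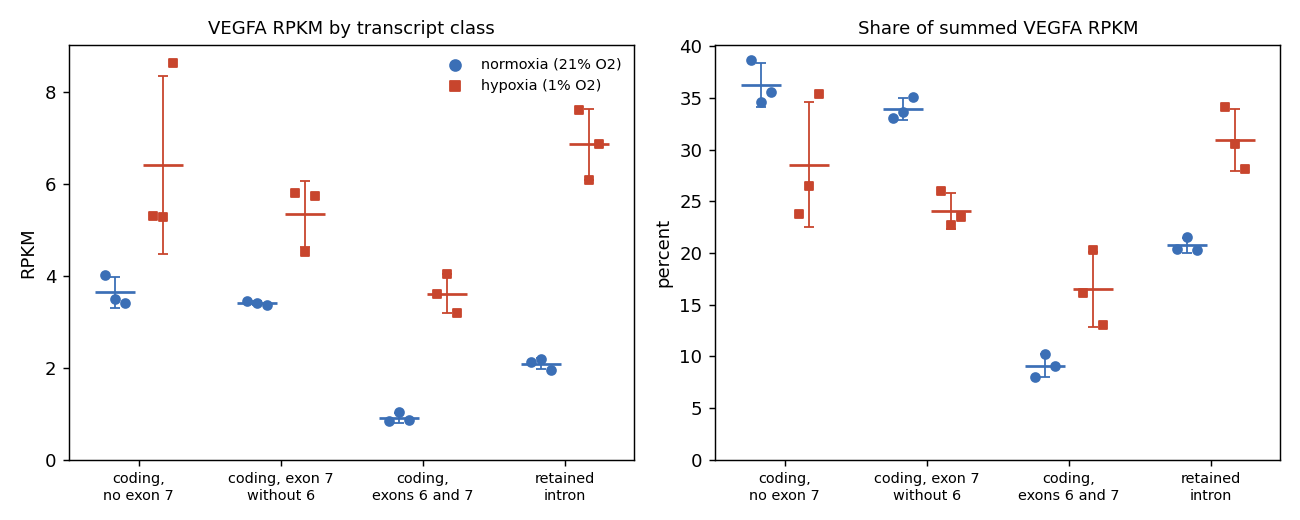
VEGFA transcripts by class, with RPKM in the left panel and percent of summed VEGFA RPKM in the right panel for each of the 6 libraries, with normoxia as blue circles, hypoxia as red squares, and the mean and SD of 3 libraries as bars. Every class is higher in hypoxia by RPKM, the share without exon 7 overlaps between groups, and the retained-intron share lies between 20.3% and 21.6% in normoxia and between 28.1% and 34.1% in hypoxia.

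Among single VEGFA messages, 9 were tested and 5 were raised, where 2.35% of the 36442 transcripts were raised. VEGFA-205 and VEGFA-209 are among the 5 and have identical values in all 6 libraries, so the 5 are not all separate measurements. VEGFA-205 and VEGFA-209 each rose by 1.27 on the log2 scale (SE 0.12, adjusted p 0.00235 by limma). The retained-intron transcripts VEGFA-215 (0.85, adjusted p 0.0142), VEGFA-214 (0.99, adjusted p 0.033) and VEGFA-211 (0.69, adjusted p 0.0345) also rose. VEGFA-214 was at 0.418, 0.374 and 0.338 RPKM in normoxia and 1.73, 1.12 and 2.51 in hypoxia. It passed the filter on low values only through its hypoxic libraries and had to differ, so its call is no support. VEGFA-206, whose 147 codons give the short diffusing form, was at 1.72, 1.27 and 1.64 RPKM in normoxia and 2.26, 2.84 and 3.06 in hypoxia (log2 fold change 0.55, adjusted p 0.0717 by limma). VEGFA-204, with 327 codons and no exon 7, was at 1.46 ± 0.179 and 2.47 ± 0.299 RPKM (log2 fold change 0.50, adjusted p 0.0716). Neither message passed the test. Both were higher in all 3 hypoxic libraries, as were 16.4% of tested genes, and the share among all transcripts was not counted.

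Whether a message changed unlike the others of its gene was tested with diffSplice in limma, which called 2 of the 9 VEGFA messages where it called 0.785% of all transcripts tested. These were VEGFA-201 (log2 difference from the others -1.01, adjusted p 0.00942) and VEGFA-208 (-0.96, adjusted p 0.0171). VEGFA-201 was at 1.52, 0.227 and 0.676 RPKM in normoxia and 0.546, 0 and 0.878 in hypoxia, so the groups overlapped widely, and VEGFA-208 overlapped too. On simulated data 39.5% of diffSplice calls were false. A fit of each message's ratio to the rest of its gene, with 1.98% false calls on simulated data and 30% of changed messages recovered, called none of the 9, with 4 at an unadjusted p under 0.05 (adjusted p 0.232 for VEGFA-201 and 0.166 for VEGFA-208). It called 0.0403% of all transcripts, and its power for VEGFA messages was not tested. The simulation changed 1 message per gene by 1 on the log2 scale. The changed messages came from genes with fewer tested messages than VEGFA. They also had higher levels than VEGFA-201 and VEGFA-208, so the 30% recovered may not hold for VEGFA.

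Of 12 genes listed as receptors of these ligands, 9 had values and 1 of them, FLT4, the receptor of VEGFC, reached the level for testing. FLT4 was at 5.33, 5.71 and 5.27 RPKM in normoxia and 8.82, 9.25 and 11.4 in hypoxia, and it rose (log2 fold change 0.74, SE 0.09, adjusted p 2.81e-04 by limma). Most of that gain lay in retained-intron transcripts, at 3.14 ± 0.161 and 6.61 ± 1.06 RPKM. FLT4 transcripts annotated as coding were at 2.29 ± 0.305 and 3.19 ± 0.293 RPKM, and with coding transcripts alone the log2 fold change was 0.35 (adjusted p 0.0162). KDR, the main receptor of VEGFA, was at 0.137 RPKM in normoxia and 0.136 in hypoxia. CALCRL, which forms the adrenomedullin receptor with RAMP2, was at 0.0487 and 0.023 RPKM, and RAMP2 at 0.223 and 0.314. TEK, the receptor of the angiopoietins, was at 0.00429 and 0.0164 RPKM, while EDNRB, a receptor of endothelins, was at 0.799 and 0.857. FLT1, RAMP1 and RAMP3 were not analysed here.

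Neuropilins also carry class 3 semaphorins, which signal through plexins. Of 12 such genes listed 5 were tested, with a median log2 fold change of -0.04. SEMA3B, a repellent ligand that binds neuropilins, was at 0.457, 0.299 and 0.486 RPKM in normoxia and 1.43, 1.64 and 1.69 in hypoxia. It passed the filter on low values only through its hypoxic libraries and had to differ, so its call is no support for a change in the list, and with protein-coding transcripts alone it was not among the 4 genes tested. SEMA3C, SEMA3F, PLXNA1 and PLXND1 did not pass the test (limma). SEMA3C alone had an unadjusted p under 0.05, and it was called lowered with equal RPKM sums (log2 fold change -0.27, adjusted p 0.0275), with estimated reads (-0.31, adjusted p 0.0163) and without hypoxic library 1 (-0.28, adjusted p 0.0151). Under the other alternatives SEMA3C was not called. Among them were median-of-ratios scaling (adjusted p 0.258), upper-quartile scaling (0.249), coding transcripts alone (0.106) and any one normoxic library left out (0.107 to 0.205).

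Enzymes that finish the ligands were listed as 10 genes, of which 8 were tested, 2 raised and 1 lowered, with a median log2 fold change of -0.03. Among all tested genes 12.4% were raised and 24.4% lowered, so counts for so few genes say little. PAM, which adds the amide group that adrenomedullin needs to be active, was at 13.6, 15.5 and 15.9 RPKM in normoxia and 23.9, 23.9 and 23.2 in hypoxia (log2 fold change 0.63, SE 0.07, adjusted p 1.32e-04 by limma). So the messages of ADM and of its amidating enzyme both rose, with every hypoxic library above every normoxic one, as for 16.4% of tested genes. MME, a protease at the cell surface that degrades small peptides, rose from 44.8 ± 1.98 to 60.1 ± 3.93 RPKM (log2 fold change 0.42, adjusted p 0.00102). ADAMTS3, which cuts the VEGFC precursor, fell from 3.55 ± 0.284 to 2.55 ± 0.577 RPKM (log2 fold change -0.37, adjusted p 0.0331), and the call was lost with median-of-ratios scaling (adjusted p 0.0793), with upper-quartile scaling (0.0825), with no filter (0.181) and without any one normoxic library (0.0563 to 0.105). Without hypoxic library 2 the log2 fold change of ADAMTS3 was -0.23 (adjusted p 0.0848). FURIN, which also cuts VEGFC, was at 23.5 and 23.6 RPKM, and ECE1, which makes active endothelin, at 23.5 and 22.4 RPKM.

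Among 26 other ligands with known roles in vessel growth 13 were tested, 6 were raised and 2 lowered, with a median log2 fold change of 0.24. The shares over all tested genes were 12.4% raised and 24.4% lowered. ANGPTL4, a secreted inhibitor of lipoprotein lipase, rose from 11.1 ± 0.890 to 91.5 ± 11.4 RPKM (log2 fold change 2.93), more than any gene of the 10. ANG, a secreted ribonuclease that induces vessels, rose from 2.64 ± 0.177 to 7.52 ± 0.675 RPKM (log2 fold change 1.23, adjusted p 3.85e-06 by limma). FGF2, a growth factor of endothelial cells, fell from 24.7 ± 0.665 to 16.2 ± 2.43 RPKM (log2 fold change -0.59, adjusted p 0.00121). JAG1, a ligand of Notch receptors, fell from 4.28 ± 0.041 to 3.02 ± 0.152 RPKM (log2 fold change -0.39, adjusted p 0.00413). TYMP, PDGFB and CCN2 also rose. FGF1, the other gene counted as raised, was at 0.427 to 0.757 RPKM in normoxia and 1.43 to 1.60 in hypoxia, so it passed the filter on low values only through its hypoxic libraries and had to differ.

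Inhibitors of vessel growth were mostly too low to test: of 11 listed 3 were tested, 1 raised and 1 lowered. With 12.4% raised and 24.4% lowered over all tested genes, these counts say little. THBS1, which encodes the matrix protein thrombospondin-1, fell from 2.58 ± 0.236 to 1.65 ± 0.112 RPKM (log2 fold change -0.43, adjusted p 0.00496 by limma). VASH1, a secreted inhibitor, rose from 8.27 ± 0.150 to 9.82 ± 0.281 RPKM (log2 fold change 0.22, adjusted p 0.028), and its call was lost when libraries were rescaled to equal RPKM sums (adjusted p 0.0863) and without any one normoxic library (0.0815 to 0.104).

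Factors that splice VEGFA or set the stability of its message were listed as 13 genes, all tested, of which 1 was raised and 3 lowered, with a median log2 fold change of -0.15. Against the 24.4% lowered among all genes these 3 of 13 do not stand apart, and the count moved with the settings: 8 were lowered with equal RPKM sums, 7 with estimated reads and 1 with median-of-ratios scaling. SRPK1, a kinase that directs splicing factors to VEGFA, fell from 23.1 ± 0.535 to 18.0 ± 2.05 RPKM (log2 fold change -0.35, adjusted p 0.00732 by limma), a call lost with no filter on low values (adjusted p 0.0627). ELAVL1, which binds and steadies VEGFA messages, fell by 0.23 on the log2 scale (adjusted p 0.0127). This call was lost with median-of-ratios scaling (adjusted p 0.0838), with upper-quartile scaling (0.0613) and without normoxic library 3 (0.076). SRSF5, a splicing factor, rose from 93.5 ± 3.41 to 106 ± 3.95 RPKM (log2 fold change 0.19, adjusted p 0.026). Its call was lost with equal RPKM sums (adjusted p 0.125), with estimated reads (0.133), with no filter (0.0576) and without any one normoxic library (0.0545 to 0.13). HNRNPL, which binds VEGFA messages in hypoxia, fell by 0.20 (adjusted p 0.0128). This call too was lost with median-of-ratios scaling (adjusted p 0.111), with upper-quartile scaling (0.0749), without normoxic library 2 (0.0746) and without normoxic library 3 (0.0536).

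As a check of the treatment, genes that HIF is known to switch on were examined beside the factor itself. Of 9 listed 7 were tested, 5 raised and 1 lowered, with 4 raised when any single library was left out. For all tested genes the shares were 12.4% raised and 24.4% lowered. SLC2A1, the glucose transporter, rose from 5.49 ± 0.220 to 46.9 ± 6.56 RPKM, and BNIP3, a mitophagy receptor, from 28.7 ± 1.66 to 162 ± 8.54 RPKM. LDHA and PDK1 also rose. The remaining raised gene, EPAS1, encodes a subunit of HIF itself. It went from 12.9 ± 0.497 to 14.9 ± 0.226 RPKM (log2 fold change 0.19, adjusted p 0.0412 by limma). The known targets CA9 and EGLN3 were too low to test. CA9 averaged 0 RPKM in normoxia and 0.0360 ± 0.0327 in hypoxia. EGLN3 averaged 0.185 ± 0.0118 and 0.328 ± 0.0958 RPKM. HIF1A, whose protein rather than message is set by oxygen, fell from 26.2 ± 0.197 to 21.3 ± 1.47 RPKM (log2 fold change -0.29, adjusted p 0.00756 by limma).

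**Figure D4:**
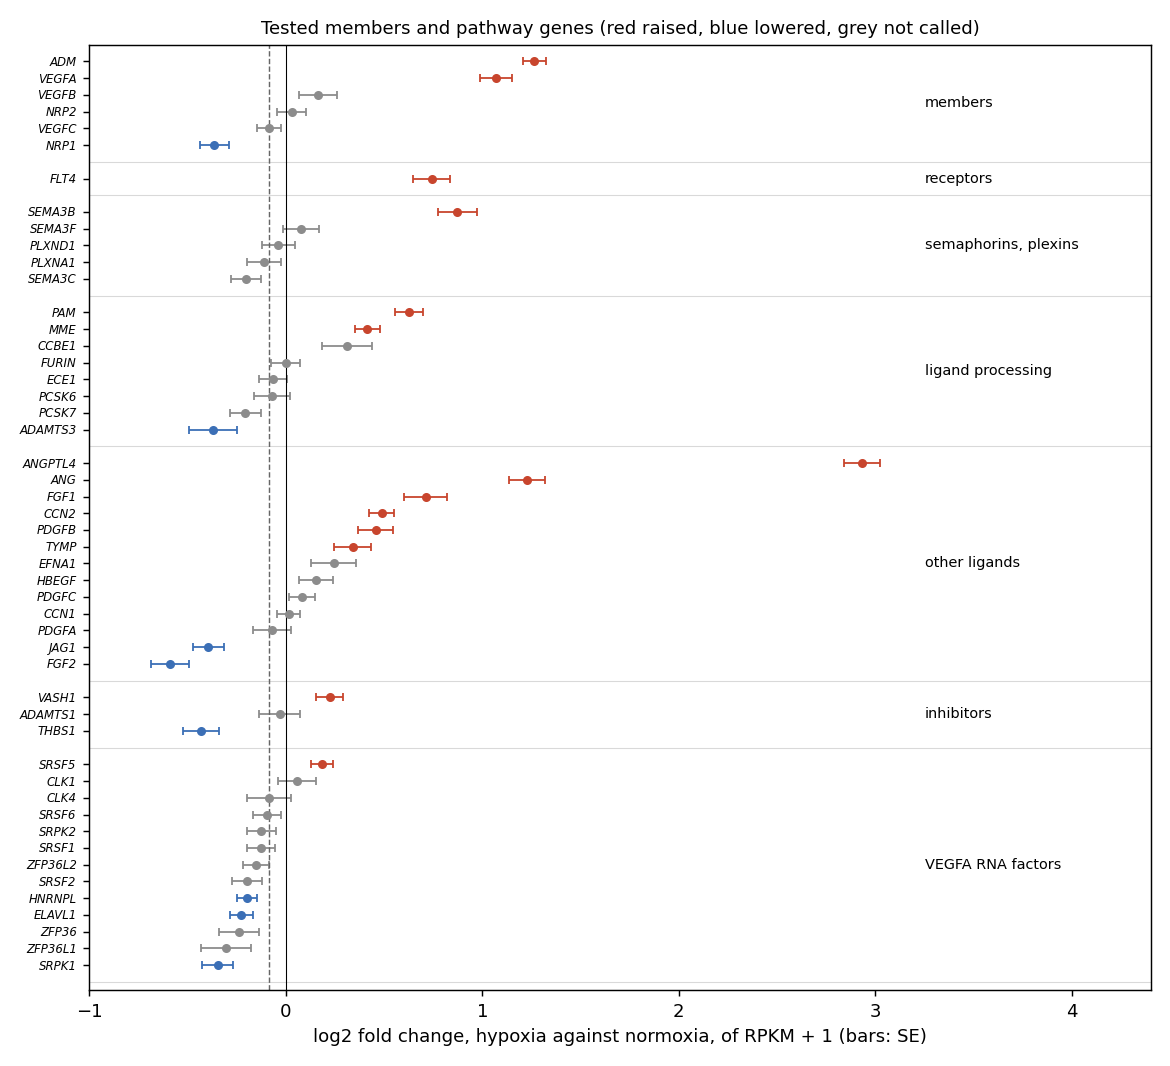
Log2 fold changes (hypoxia minus normoxia, of RPKM + 1) of the 6 tested genes and of the tested genes of 6 related lists, with bars for the SE, a solid line at 0 and a dashed line at the median of all tested genes (-0.08). Red marks raised, blue lowered and grey not called at an adjusted p under 0.05. ADM (1.26) and VEGFA (1.07) lie to the right of the growth factors VEGFB and VEGFC, and ANGPTL4 (2.93) lies farthest out.

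RefSeq sequence around annotated starts was searched for the core of the HIF binding motif, ACGTG or GCGTG on either strand. The windows (GRCh38.p14, 250 bases before to 50 after the start) were at hand for 6 of the 10 genes: ADM, VEGFB, VEGFC, PGF, EDN1 and NRP2. Of all 35116 windows of 300 bases, 48.5% hold at least 1 such core, so a match is common. The ADM window, shown because ADM rose the most of the 10, holds 1 core, at chr11:10304962-10304986 on the forward strand with 10 bases on each side and the core in capitals. The window is set on the RefSeq start. ADM-201, which held most of the ADM RPKM, starts upstream of it at chr11:10304680 in GENCODE 29, so by that annotation the core lies after the start of the main message.
ADM window, core at -101 from the RefSeq start: gcaggagcgcGCGTGgctgaggaaa
VEGFB, VEGFC and both PGF windows hold 1 core each, the 3 EDN1 windows hold 3, 0 and 1, and the NRP2 window holds none. So a core near an annotated start was found both in a gene that rose and in genes that did not pass the test. These matches describe letters and not binding.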

How the data were processed

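RNA-seq of 3 normoxic and 3 hypoxic libraries of SUM1315 cells was analysed. Per the labels' protocols, each library was built from 500 ng of total RNA, and the kit they name keeps no record of strand. The build was GRCh38 (hg38), and Trimmomatic, HISAT2, SAMtools and Partek were used, per the submitters' processing notes. Versions, annotation release and strand setting were not given in the sources used here. As the measure, the authors deposited RPKM values for 165956 Ensembl transcripts. The unit was inferred from the values: multiplied by length, 79.4% to 80.2% of low values lay within 0.1 of a whole number of reads, at 43.9 to 50.7 M reads per library. Most transcript values are estimates that split reads among messages.

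Transcripts were joined to GENCODE 29 (140023, 84.4%, matched) and summed over 26425 genes, and the 25933 others, 3.43% to 3.67% of RPKM, were left out. Genes above 1 RPKM in at least 3 libraries were tested with limma 3.58.1 (mean-variance trend) in R 4.3.3 on log2(RPKM + 1), with the group as the only term, and called at a Benjamini-Hochberg adjusted p under 0.05. Transcripts above 0.5 RPKM in at least 3 libraries were tested likewise and with diffSplice. Single values were compared by exact two-sided permutation tests. Other tools were matplotlib 3.10.9, pandas 2.3.3, numpy 2.4.6 and Python 3.11.15. The comparison of hypoxia with normoxia was tested on simulated data of 11889 genes: 96% of genes raised and 98% of genes lowered by 1 on the log2 scale were recovered, 78% and 70% of those changed by 0.5, and 7.57% of calls were false. Replicates differed by more than counting noise (mean chi-square per gene at least 6.67), so none were merged. Antisense genes that overlap VEGFC, NRP1 and NRP2 were at or below 0.274 RPKM.

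The 10 genes, the gene lists and the tests were chosen with earlier results of these data known. Named were all 10 genes, up to 2 raised and 2 lowered genes per list with the smallest adjusted p, VEGFA transcripts with at least 5% of its RPKM, and the genes nearest in profile to VEGFA (5) and ADM (3). Receptors, enzymes, splicing factors and genes of the treatment check outside the rule were named for their role after their values were seen. Alternatives were 3 scalings, filters, the replicate number as a block, a pseudocount of 0.1, coding transcripts only and each library left out. Estimated reads and the ratio test were chosen after seeing the data.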

Additional observations from a re-analysis of the deposited data

How the results depend on the processing

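ADM and VEGFA were raised and NRP1 lowered under all 15 alternatives. Their log2 fold changes ranged from 1.20 to 1.35, from 0.86 to 1.20 and from -0.43 to -0.28, and their highest adjusted p (limma) was 0.0013, 0.00584 and 0.0397. With equal RPKM sums 2 genes were lowered, as VEGFC (-0.15, adjusted p 0.0443) joined NRP1. Without hypoxic library 1, VEGFB (0.29, adjusted p 0.0101) was also raised, making 3. NRP2 (0.03) changed sign with equal RPKM sums (-0.0379), and with single libraries left out it ranged from -0.0223 (without hypoxic library 1) through -0.0007 (without hypoxic library 3) to 0.1117. The count of VEGFA messages called by diffSplice, 2, was 0 with a pseudocount of 0.1, 0 with a filter at 0.1 RPKM, 0 in the ratio test and between 0 and 2 with single libraries left out. Without normoxic library 1, VEGFA-208 alone was called, without normoxic library 2 or hypoxic library 2 VEGFA-201 alone, and without normoxic library 3 or hypoxic library 1 none. The cause was not tested. The difference in the share without exon 7 ranged from -11.1 to -5.33 percentage points, and in the retained-intron share from 8.58 to 11.6, with single libraries left out.

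Among all genes, 66.2% of calls were lowered, against 41.3% with median-of-ratios scaling, 42.9% with upper-quartile scaling and 78.1% with equal RPKM sums, which put the median log2 fold change at -0.01, -0.02 and -0.14. The replicate numbers gave no pairing: same-numbered libraries deviated together with correlations of 0.0894, 0.0299 and -0.227. With the replicate block 2 genes were raised and 1 lowered, 2 VEGFA messages were called, and the share without exon 7 differed by -7.70 points within pairs (exact p = 0.25, the smallest that 3 pairs allow). Depth limits PGF, EDN1, ANGPT1 and ANGPT2, at most 16.6 reads per library.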

Other observations

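The genes whose profile over the 6 libraries lay closest to that of VEGFA were PLOD1, GYS1, MEGF6, GAPDH and LRIG1. Likeness is the root mean square difference of log2(RPKM + 1) from the normoxic mean, over 7966 protein-coding genes with a mean of at least 5 RPKM, and it is a description with no test. PLOD1, which hydroxylates collagen lysines, differed from VEGFA by 0.056 and was at 72.5 ± 0.701 RPKM in normoxia and 154 ± 14.8 in hypoxia. GYS1, the glycogen synthase of muscle and most other tissues, differed by 0.0565 and was at 16.6 ± 0.107 and 34.9 ± 4.42 RPKM. GAPDH, an enzyme of glycolysis that is often used as a reference gene, differed by 0.0677 and was at 3758 ± 64.8 and 7832 ± 479 RPKM. MEGF6 differed by 0.0625 and LRIG1, a membrane protein that restrains EGF receptors, by 0.0704. The median difference over all genes compared was 0.84.

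Closest to ADM were RNASE4 (0.0493), ANG (0.0528) and STC2 (0.0721), against a median of 0.975. RNASE4 and ANG encode secreted ribonucleases, share a locus and first exons, so their reads cannot be fully told apart. STC2, a secreted glycoprotein hormone, was at 59.4 ± 1.56 RPKM in normoxia and 147 ± 5.24 in hypoxia.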
